A study of Caenorhabditis elegans with 6 samples.

Results

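The BATH and MATH families of Caenorhabditis elegans were examined in 6 RNA-seq libraries of whole adult worms. The members were all genes whose name in the deposited table is bath or math followed by a number, 73 of 22407 genes with counts, of which 36 are bath genes and 37 are math genes. The MATH domain (meprin and TRAF homology) is a fold that binds short peptides in other proteins. A BATH protein joins a MATH domain to a BTB domain, and the best known worm protein of this build, MEL-26, brings substrates to the CUL-3 ubiquitin ligase, whose BTB adaptors each carry different proteins to ubiquitination. Most math genes are named for a MATH domain without a BTB domain, and MATH-33 differs from them as a deubiquitinase related to human USP7 that acts on the transcription factor DAF-16.

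All worms were of strain AM140, which carries rmIs132 [unc-54p::Q35::YFP], a fusion of 35 glutamines to yellow fluorescent protein made in body wall muscle. The EV group (3 libraries) ate HT115 bacteria with an empty vector and the gtr-1 RNAi group (3 libraries) ate HT115 bacteria made for RNA interference with the gtr-1 3'UTR. In both groups 2 generations ate the diet of their group at 20 °C. Eggs were taken by bleaching day 1 adults of generation 1, and generation 2 was collected as day 6 adults after daily removal of its progeny. Each library came from a pool of whole worms, so fewer cells of a type and less RNA per cell cannot be told apart.

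Libraries held between 33254426 and 41902475 counts. The targeted gene did not check the labels: gtr-1 counts were 16, 25 and 20 in EV replicates 1 to 3 and 20, 24 and 19 in the libraries labelled gtr-1 RNAi, replicates 1 to 3, with overlap. Over the genes that passed the filter on low counts, the 2 nearest libraries were gtr-1 RNAi replicate 3 and EV replicate 1. Their root mean square log2 difference was 0.151. Some values are therefore also given without gtr-1 RNAi replicate 3. That replicate was singled out by its nearness to EV in these same data. Larger differences and more calls without it could follow from that choice. Summed CPM (a gene's counts relative to the library total adjusted with TMM factors) of 8 body wall muscle markers was 1948 to 2786 in EV and 2380 to 2773 in gtr-1 RNAi. Summed CPM of 10 germline and oocyte markers was 9557 to 9806 in EV and 9856 to 10600 in gtr-1 RNAi, and that of 8 hypodermis markers was 195.5 to 257.3 and 260.1 to 357.3. With TMM factors these last 2 lists did not overlap between the groups. However, the germline and oocyte ranges came as close as 9806 and 9856, and the hypodermis ranges as close as 257.3 and 260.1. Both gaps are small enough to depend on the scaling. No gene of these 2 lists was at 0, and the part of the lists in the values below was not tested. The lists for intestine, neurons, sperm and early embryo overlapped between the groups.

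The families were chosen by results of this same contrast, so the differences between the groups are given for their members as a description. The calls below come from fits over all genes, and after that choice they are no independent test of the members. The levels, positions and gene lengths were not part of that choice.

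Most of the bath transcript came from a few genes. Levels per gene length are given as CPM per kb of exon, the mean over the 6 libraries unless stated. The bath genes had a median level of 6.14 CPM per kb, against 0.271 CPM per kb for the math genes and 1.33 CPM per kb for all genes with counts. There were 13 bath genes above 10 CPM per kb and 6 below 1 CPM per kb. The math family was the reverse, with 1 gene above 10 CPM per kb and 22 below 1 CPM per kb.

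The highest bath level belonged to bath-42, on chromosome III, at 165.0 ± 5.51 CPM per kb (SD, n = 3) in EV and 173.4 ± 5.53 CPM per kb (SD, n = 3) in gtr-1 RNAi. Next came bath-40 on chromosome I, at 134.8 ± 2.82 and 142.7 ± 2.05 CPM per kb, and bath-41 on chromosome III, at 130.2 ± 0.582 and 137.6 ± 7.40 CPM per kb. The ranges of bath-40 and bath-41 over the 6 libraries overlapped, from 132.2 to 144.0 and from 129.6 to 144.3 CPM per kb, so their order is within the spread, while bath-42 stayed above both, from 159.6 to 179.4 CPM per kb. The fourth, bath-44 in the middle of chromosome II, was at 78.1 ± 2.53 and 77.4 ± 3.47 CPM per kb, and bath-30 followed at 45.8 ± 0.366 and 52.6 ± 2.16 CPM per kb. The sixth was bath-5, at 31.45 ± 2.87 and 31.5 ± 0.777 CPM per kb. The 4 leading genes made up 62.9% to 64.1% of the summed level of the family in every library, with overlap between the groups.

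A single gene, math-33, led its family in the same way. Its level was 99.6 ± 1.20 CPM per kb (SD, n = 3) in EV and 94.5 ± 1.11 CPM per kb (SD, n = 3) in gtr-1 RNAi. It held 67.5% to 69.4% of the summed math level in EV and 63.2% to 65.4% in gtr-1 RNAi, and these shares did not overlap. The next math gene, math-14, was at 7.01 CPM per kb, followed by math-24 (5.51 CPM per kb), math-38 (4.86 CPM per kb), math-20 (3.74 CPM per kb) and math-26 (3.63 CPM per kb). The ranges of math-14, math-24 and math-38 overlapped over the 6 libraries, from 5.20 to 9.31, from 4.86 to 6.14 and from 3.86 to 5.94 CPM per kb.

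**Figure D1:**
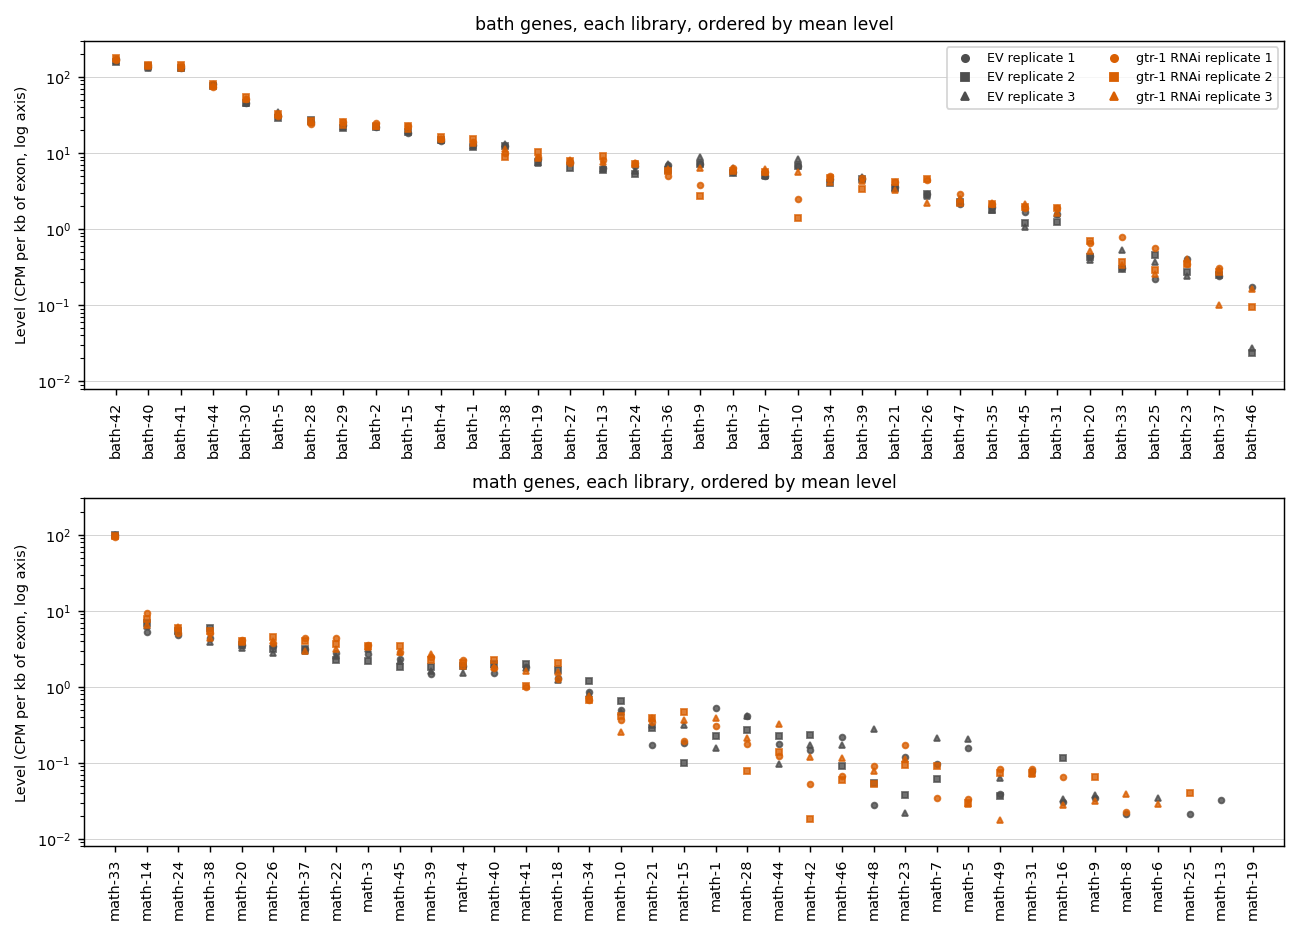
Level of each of the 73 members in each library, in CPM per kb of exon on a log axis, with bath genes above and math genes below, ordered by mean level. Grey symbols are the EV libraries and orange symbols the gtr-1 RNAi libraries, with 1 symbol shape for each replicate number; a library with 0 counts has no symbol. The bath genes start with 4 genes between 77.8 and 169.2 CPM per kb, and math-33, at 97.0 CPM per kb, stands apart from math-14 at 7.01 CPM per kb.

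The low end of the math family was at the limit of detection. There were 8 math genes with fewer than 10 counts summed over the 6 libraries, and no bath gene that low. The gene math-19 had 0 counts in every library, which allows up to 3 counts, or 0.0716 to 0.0902 CPM depending on the library. For the comparison a filter on low counts kept 34 of the 36 bath genes and 21 of the 37 math genes. Values at this edge were close together: bath-37 passed with 11, 12 and 12 counts in EV and 13, 13 and 5 in gtr-1 RNAi, and bath-23 did not pass with 11, 8 and 6 against 9, 10 and 12. Likewise math-15 passed with 7, 4 and 11 counts in EV and 7, 19 and 15 in gtr-1 RNAi, and math-44 did not with 6, 8 and 3 against 4, 5 and 12.

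The families were concentrated on chromosome II, with 61 of the 73 members (26 bath and 35 math), or 83.6%, against 17.3% of the 19985 protein-coding genes with counts. Of these, 55 fell into 3 groups on its left arm when neighbours up to 100 kb apart were joined, a distance set after the coordinates were seen. The first group held 4 bath and 2 math genes at II:1510287-1606179 of WBcel235 among 28 protein-coding genes. The second, at II:1763372-2155220, held 10 bath and 32 math genes among 105 protein-coding genes. The third was made of 7 bath genes among 13 protein-coding genes at II:3343731-3378834. The remaining 18 members lay apart on chromosomes I to V.

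The 4 highest bath genes and math-33 all lay outside the 3 groups. The median level did not follow this for the bath family: it was 6.22 CPM per kb for the 15 bath genes that lay apart and 6.06 CPM per kb for the 21 in groups. The longest annotated coding sequence had a median of 384.0 codons for the bath genes that lay apart and 305.0 codons for those in the groups, a difference that was not tested. The math genes were more spread in length, from 105 codons to the 1138 codons of math-33, and 34 of the 37 lay in the groups. All 73 members are annotated as protein-coding.

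Between the groups, most members of both families lay slightly above EV in the libraries labelled gtr-1 RNAi, and a few lay well below it. The median log2 fold change (gtr-1 RNAi over EV) was 0.09 over the 34 bath genes that passed the filter, with 26 above 0 and 8 below. It was 0.21 over the 21 math genes that passed, with 15 above 0 and 6 below. Over all 14683 genes that passed, the median was -0.0025, with 7269 above 0. With library size alone in place of TMM factors, all medians shifted, to 0.03 for bath, 0.16 for math and -0.06 for all genes, and 25 bath and 15 math genes were above 0. Without gtr-1 RNAi replicate 3 the bath median was 0.14 and the math median was 0.24.

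The displacement of the bath genes was small and that of the math genes wider. The lower and upper quartiles were at log2 fold changes of 0.02 and 0.23 for bath, -0.08 and 0.40 for math and -0.23 and 0.13 for all genes. A log2 fold change past 0.5 in either direction was seen in 4 bath genes (11.8%), in 9 math genes (42.9%) and in 21.0% of all genes that passed. The median standard error was 0.12 for bath, 0.17 for math and 0.14 for all genes on the log2 scale, so the math values were also the less precise. For each gene, the CPM of a library was divided by the EV mean, and the median of these ratios over the bath genes was 1.13, 1.09 and 1.04 in gtr-1 RNAi replicates 1 to 3. Over the math genes it was 1.09, 1.23 and 1.08.

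All 3 libraries of gtr-1 RNAi were above all 3 of EV for 14 bath genes (41.2%) and 8 math genes (38.1%), against 16.6% of all genes that passed. They were all below EV for 3 bath genes (8.82%) and 6 math genes (28.6%), against 19.6% of all genes. The edgeR quasi-likelihood test with Benjamini-Hochberg adjustment, run over all 14683 genes, called 0% of them at an adjusted p under 0.05, and so no member. The smallest adjusted p over all genes was 0.112. At an unadjusted p under 0.05 edgeR listed 1898 of the 14683 genes higher and 2242 lower. Among them were 9 of the 34 bath genes higher and 2 lower, and 5 of the 21 math genes higher and 4 lower.

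The DESeq2 Wald test, tried as an alternative over the 12802 genes to which it gave an adjusted p, called 6.66% of genes higher and 7.58% lower. Of the 31 bath genes with such a p it called bath-30 and bath-13 higher and bath-9 and bath-10 lower. Of the 16 math genes with such a p it called math-26 and math-45 higher and none lower. Among the math genes that passed the filter, math-42, math-28 and math-10, with negative fold changes, were given no such p. The same held for math-15 and math-21, with positive fold changes, so DESeq2 could not call any of these genes. Without gtr-1 RNAi replicate 3, edgeR called 8.77% of 14920 genes higher and 15% lower. That fit held 5 bath genes higher (bath-13, bath-15, bath-26, bath-29, bath-30) and 3 lower (bath-9, bath-10, bath-38), with 3 math genes higher (math-22, math-37, math-45) and 3 lower (math-28, math-41, math-42). All of these counts come from the contrast by which the families were chosen, and replicate 3 was left out for its nearness to EV in it.

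**Figure D2:**
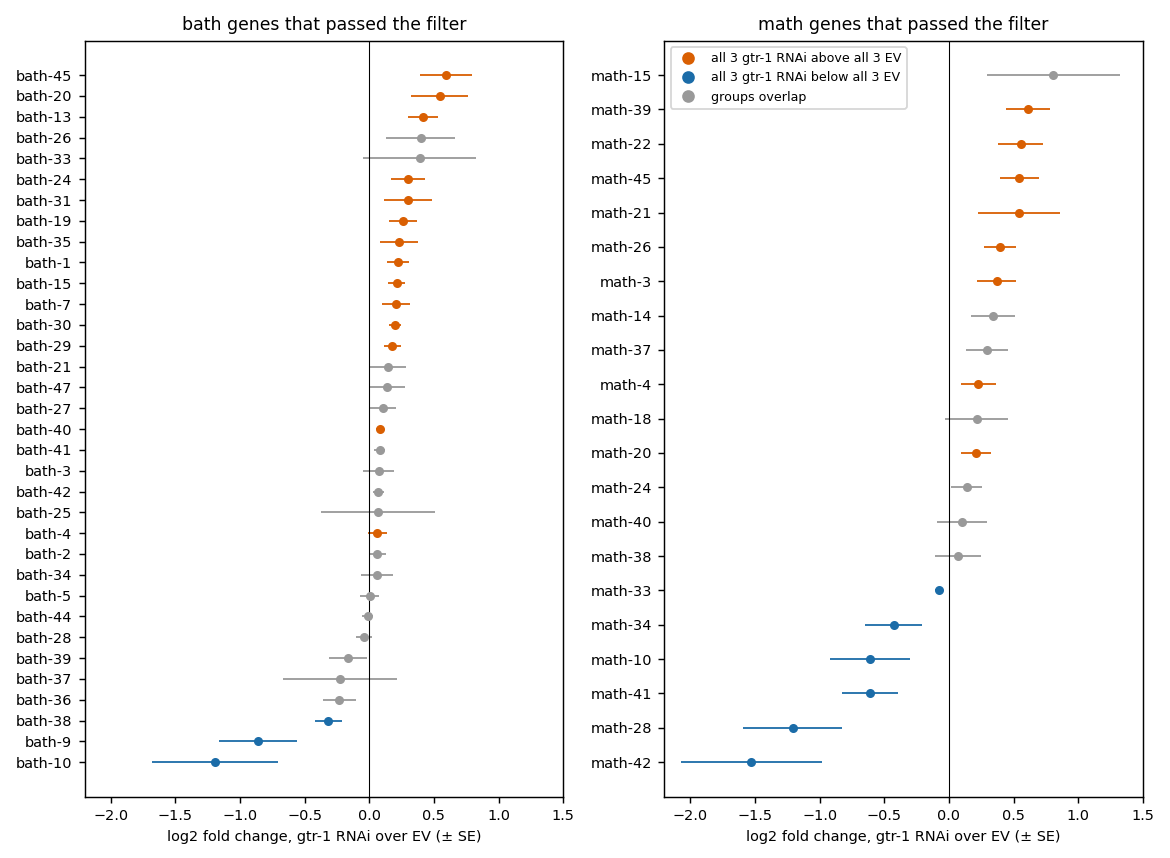
Log2 fold change of gtr-1 RNAi over EV, with its standard error, for the 34 bath and 21 math genes that passed the filter. Orange marks genes with all 3 gtr-1 RNAi libraries above all 3 EV libraries, blue the reverse and grey an overlap; bath-10 and bath-9 stand below the other bath genes, and math-42 and math-28 below the other math genes.

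The lowest bath genes were bath-10 and bath-9, which are next to each other on chromosome II and are read from the same strand. The CPM of bath-10 (II:3375079-3376721, + strand, 317 codons) was 7.44, 7.52 and 9.19 in EV and 2.74, 1.555 and 6.22 in gtr-1 RNAi. The CPM of bath-9 (II:3377089-3378834, + strand, 301 codons) was 8.075, 8.13 and 10.1 in EV and 4.21, 3.06 and 7.15 in gtr-1 RNAi. For both genes every gtr-1 RNAi library was below every EV library, and replicate 3 was the highest of the 3 and the nearest to EV. The log2 fold change was -1.19 ± 0.49 (SE) for bath-10 and -0.86 ± 0.30 (SE) for bath-9, and -1.91 and -1.27 without replicate 3.

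Within the pair the ratio of counts stood below EV mainly in gtr-1 RNAi replicates 1 and 2, and this was not tested. The ratio of bath-10 counts to bath-9 counts was 0.921, 0.925 and 0.913 in EV. In gtr-1 RNAi the ratio was 0.651, 0.508 and 0.870, below EV in each library. The annotated exons of bath-9 share 208 bases with Y49F6C.2 on the same strand, so reads there could not be assigned with certainty to either, and bath-10 shares none with another gene.

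Low values were also seen beside the pair, but not in the nearest protein-coding genes on either side that passed the filter. No value is given for Y49F6C.2, which overlaps bath-9. The lincRNA linc-11 (II:3373169-3374185, - strand), which lies just before bath-10, was at 4.60, 4.46 and 5.05 CPM in EV and 2.40, 2.03 and 4.065 CPM in gtr-1 RNAi, a log2 fold change of -0.73 ± 0.26 (SE). Beyond it, the log2 fold change was 0.07 ± 0.09 for Y49F6C.8 and 0.10 ± 0.10 for bath-27, and after the pair T06D4.1 was at 0.15 ± 0.04 and, further on, the pseudogene WBGene00020292 was at -0.71 ± 0.24 (SE). The remaining members of this group on chromosome II were bath-28, bath-29, bath-30 and bath-23; bath-23 did not pass the filter, and the others lay between -0.04 and 0.20. These neighbours were looked at after the values of bath-9 and bath-10 had been seen.

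The third bath gene with all gtr-1 RNAi libraries below EV was bath-38, which lies apart at II:10042780-10045270 (- strand). Its CPM was 19.98, 19.95 and 21.3 in EV and 16.25, 14.35 and 18.6 in gtr-1 RNAi, with a log2 fold change of -0.32 ± 0.10 (SE). The next lowest, bath-36 on chromosome V and bath-37 on chromosome IV, had log2 fold changes of -0.23 ± 0.12 and -0.22 ± 0.44 (SE), and both overlapped between the groups. The direction of bath-37 turned without gtr-1 RNAi replicate 3, to 0.14.

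Among the bath genes above EV without overlap between the groups was bath-30 (II:3345218-3346378, - strand). Its CPM was 47.3, 46.6 and 46.7 in EV and 53.1, 56.3 and 52.1 in gtr-1 RNAi, a log2 fold change of 0.20 ± 0.05 (SE). It lies in the same group of 7 bath genes as bath-9 and bath-10, in the opposite direction. For bath-13 (II:2520842-2522060, - strand) the CPM was 6.67, 6.255 and 6.535 in EV and 8.51, 9.53 and 7.885 in gtr-1 RNAi, a log2 fold change of 0.41 ± 0.11 (SE).

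The 2 highest bath fold changes belonged to genes of low level. For bath-45, the CPM was 3.11, 2.20 and 1.925 in EV and 3.45, 3.56 and 3.92 in gtr-1 RNAi, with a log2 fold change of 0.59 ± 0.20 (SE). For bath-20, it was 0.850, 0.836 and 0.759 in EV and 1.27, 1.33 and 0.9795 in gtr-1 RNAi, with 0.55 ± 0.22 (SE). Both had no overlap between the groups. For bath-26, the log2 fold change was 0.40 ± 0.27 (SE) and the libraries split: 4.97 and 5.17 CPM in gtr-1 RNAi replicates 1 and 2 lay above the EV range of 3.09 to 3.27 CPM, and 2.498 CPM in replicate 3 lay below it. Its log2 fold change was 0.67 without gtr-1 RNAi replicate 3, 0.23 without replicate 2 and 0.27 without replicate 1. For bath-33, with 11 to 26 counts a library, it was 0.39 ± 0.44 (SE), with overlap, and ran from -0.07 without gtr-1 RNAi replicate 1 to 0.69 without EV replicate 3.

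The 4 bath genes of highest level differed little between the groups. The CPM of bath-40 was 199.7, 204.9 and 196.6 in EV and 214.1, 213.9 and 208.7 in gtr-1 RNAi, with no overlap and a log2 fold change of 0.08 ± 0.03 (SE). The log2 fold change was 0.08 ± 0.04 for bath-41, 0.07 ± 0.04 for bath-42 and -0.01 ± 0.04 for bath-44 (SE), each with overlap. For bath-5 it was 0.0025 ± 0.07 (SE). With library size alone, those of bath-40, bath-41 and bath-42 were 0.02, 0.02 and 0.01, so these small values depended on the scaling.

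**Figure D3:**
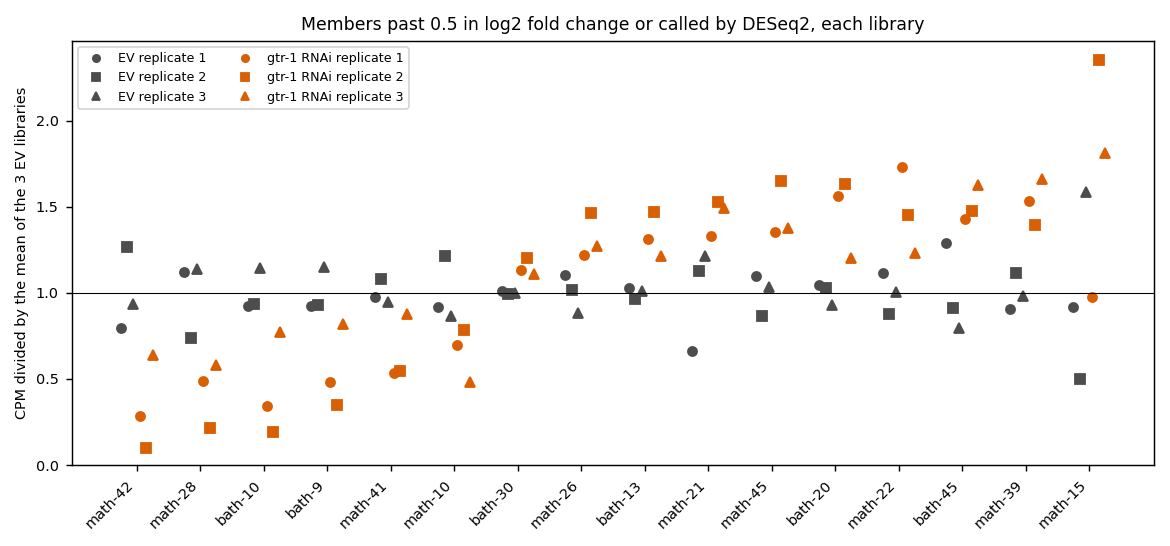
CPM of each library divided by the mean of the 3 EV libraries, for the 16 members that passed the filter with a log2 fold change past 0.5 in either direction or a DESeq2 call, ordered by fold change. Grey symbols are EV and orange symbols gtr-1 RNAi, with 1 shape for each replicate number; gtr-1 RNAi replicate 3 (triangle) is the nearest of its group to 1 for math-42, math-28, bath-10, bath-9 and math-41, and not for math-10.

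The lowest math genes were math-42 and math-28, both of low level. The counts of math-42 (II:2099926-2104180, + strand, 838 codons) were 15, 25 and 16 in EV and 5, 2 and 13 in gtr-1 RNAi, or 0.3985, 0.633 and 0.467 CPM against 0.141, 0.0502 and 0.318 CPM. The counts of math-28 (II:1763372-1766555, + strand, 843 codons) were 39, 27 and 36 in EV and 16, 8 and 22 in gtr-1 RNAi, or 1.04, 0.684 and 1.05 CPM against 0.452, 0.201 and 0.539 CPM. Neither overlapped between the groups, and gtr-1 RNAi replicate 2 was the lowest for both. The log2 fold change was -1.53 ± 0.54 (SE) for math-42 and -1.21 ± 0.38 (SE) for math-28, and -2.38 and -1.51 without gtr-1 RNAi replicate 3. Without that replicate the gtr-1 RNAi value of math-42 rests on 5 and 2 counts.

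Better covered was math-41 (II:1824629-1830228, + strand, 704 codons). Its CPM was 4.22, 4.66 and 4.08 in EV and 2.32, 2.36 and 3.795 in gtr-1 RNAi, a log2 fold change of -0.61 ± 0.22 (SE) with no overlap, and -0.89 without gtr-1 RNAi replicate 3. The lower libraries were again gtr-1 RNAi replicates 1 and 2. For math-10 the CPM was 0.558, 0.734 and 0.525 in EV and 0.424, 0.477 and 0.294 in gtr-1 RNAi (-0.61 ± 0.31, SE), and here replicate 3 was the lowest. For math-34, the one math gene besides math-33 that passed the filter and lies apart from the groups, the log2 fold change was -0.43 ± 0.22 (SE). It was -0.24 without EV replicate 2.

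Some neighbours of these math genes lay in the other direction. On the + strand after math-28, beyond a pseudogene, come math-26 and math-3. The CPM of math-26 (II:1771647-1774942, 821 codons) was 8.87, 8.18 and 7.12 in EV and 9.81, 11.8 and 10.2 in gtr-1 RNAi, a log2 fold change of 0.40 ± 0.12 (SE) with no overlap. That of math-3 was 0.37 ± 0.15 (SE). The exons of math-26 and math-3 share bases on the same strand, so their counts are not fully separate.

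After math-41, math-40 and math-39 follow on the + strand. The CPM of math-39 was 1.49, 1.82 and 1.605 in EV and 2.52, 2.28 and 2.72 in gtr-1 RNAi, a log2 fold change of 0.61 ± 0.17 (SE) with no overlap, and math-40 was at 0.10 ± 0.19 (SE). Beyond math-39, the pseudogene WBGene00020364 was at -0.40 ± 0.35 and T08E11.1 at 0.79 ± 0.42 (SE), both with overlap. The 4 F-box genes before math-41 were at negative values, -0.45 ± 0.27 for fbxb-13, -0.32 ± 0.17 for fbxb-10, -0.19 ± 0.26 for fbxa-3 and -0.24 ± 0.25 for fbxc-19 (SE), and of these fbxb-10 had no overlap between the groups. Before math-42, fbxb-37 was at -0.55 ± 0.28 and T16A1.10 at -0.82 ± 0.41 (SE), both with overlap. Further before it, trpl-5 was at -0.0017 ± 0.37 and F07E5.9 at -0.21 ± 0.39 (SE), also with overlap. After math-42, srh-195 and math-37 were at 0.38 ± 0.38 and 0.29 ± 0.16 (SE). The pseudogenes WBGene00020075 and WBGene00020081 after it were at 0.01 ± 0.18 and -0.16 ± 0.17 (SE). In front of math-28, 3 protein-coding genes that are no members were low too. The nearest, F36H5.4, was at 4.06, 4.10 and 4.84 CPM in EV and 1.84, 1.28 and 2.77 CPM in gtr-1 RNAi, a log2 fold change of -1.14 ± 0.27 (SE), followed by fbxb-53 at -0.62 ± 0.24 and F36H5.17 at -0.75 ± 0.35 (SE), and none of the 3 overlapped between the groups. These neighbours too were looked at after the values of the low genes had been seen.

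Several math genes lay above EV in all libraries at moderate level. For math-45 (II:1510287-1517454, - strand) the CPM was 3.93, 3.09 and 3.705 in EV and 4.83, 5.89 and 4.92 in gtr-1 RNAi, a log2 fold change of 0.55 ± 0.15 (SE). For math-22 (II:1905404-1907831, + strand) it was 3.67, 2.89 and 3.30 in EV and 5.68, 4.77 and 4.04 in gtr-1 RNAi, with 0.56 ± 0.17 (SE). For math-20 it was 4.99, 4.89 and 4.55 in EV and 5.68, 5.54 and 5.485 in gtr-1 RNAi, with 0.21 ± 0.11 (SE). Their groups did not overlap.

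The highest math fold change, 0.81 ± 0.51 (SE) for math-15, came from 7, 4 and 11 counts in EV and 7, 19 and 15 in gtr-1 RNAi, which overlapped. For math-21, with 9 to 22 counts a library, it was 0.54 ± 0.32 (SE) without overlap. Leaving out EV replicate 2 gave 0.47 for math-15, leaving out EV replicate 3 gave 1.27, and leaving out EV replicate 1 gave 0.32 for math-21. Among the other leading math genes by level, the log2 fold change was 0.34 ± 0.17 for math-14, 0.14 ± 0.12 for math-24 and 0.07 ± 0.18 for math-38 (SE), all with overlap.

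**Figure D4:**
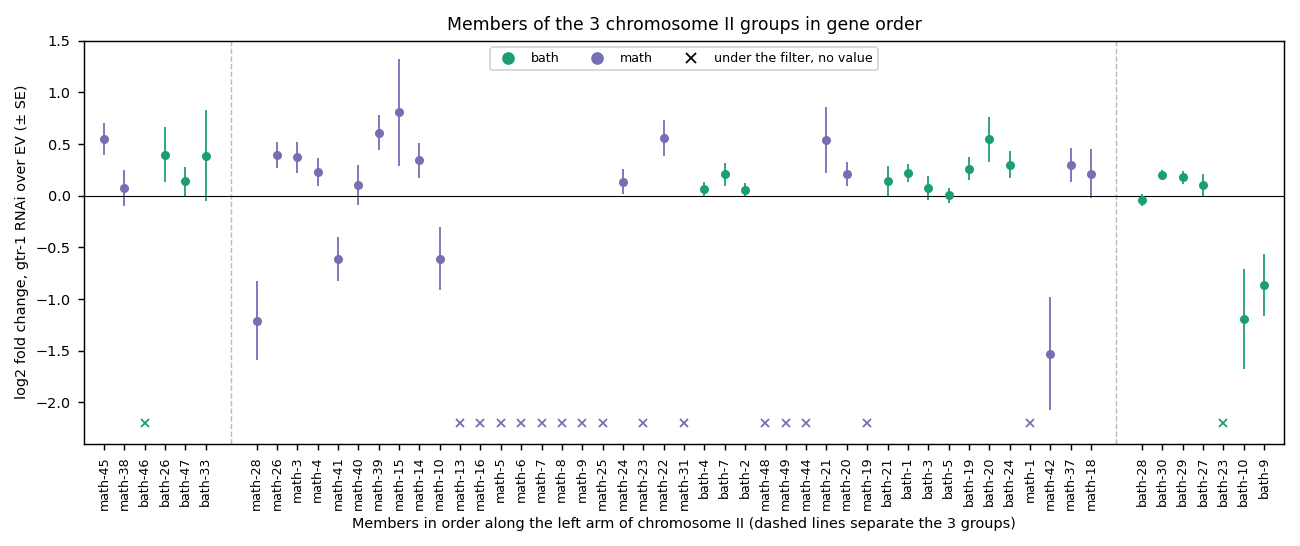
Log2 fold change of gtr-1 RNAi over EV with its standard error for the 55 members of the 3 groups on chromosome II, in gene order, with bath genes in green and math genes in purple and dashed lines between the groups. Crosses at the bottom mark members that did not pass the filter and have no value; in the second group 23 of the 27 members with a value lie above 0, and bath-10 and bath-9 end the third group.

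By position, the members of the second group had a median log2 fold change of 0.21, with 23 of the 27 that passed above 0. The 4 below 0 were math-28, math-41, math-10 and math-42, and all 4 had every gtr-1 RNAi library below EV. In this group 13 of the 27 had every gtr-1 RNAi library above EV. Of all genes that passed, 49.5% were above 0, and without overlap 16.6% were above EV and 19.6% below. In the first group all 5 members that passed were above 0 (0.07 to 0.55), and in the third 3 of 6 were. Of the 18 members that lay apart, 17 passed, 10 of them above 0, with a median of 0.07.

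The deubiquitinase gene math-33 (V:11113907-11118824, + strand) was slightly lower. Its CPM was 421.9, 415.3 and 425.2 in EV and 393.7, 402.1 and 401.6 in gtr-1 RNAi, without overlap. The log2 fold change was -0.08 ± 0.03 (SE), and -0.13 with library size alone. Replicate 3 did not stand nearer to EV here: without it the value was -0.08.

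The library that stood near EV over all genes did so for some members of each family. The CPM of gtr-1 RNAi replicate 3 was nearer to the EV mean than to the mean of gtr-1 RNAi replicates 1 and 2 for 57.4% of all genes that passed, for 18 of 34 bath genes (52.9%) and for 8 of 21 math genes (38.1%). These are descriptions, and the difference between the shares was not tested.

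The genes of the ligase with which BATH proteins are known to work differed little between the groups. Of 14 genes for the CUL-3 ligase core, its NEDD8 pathway and the COP9 signalosome, all passed the filter and neither edgeR nor DESeq2 called any, where DESeq2 called 1824 of 12802 genes. Their log2 fold changes ran from -0.07 to 0.05, and 1 gene was above EV and 1 below without overlap between the groups, where 16.6% of all genes were above and 19.6% below. The scaffold gene cul-3 was at 391.8, 382.4 and 379.9 CPM in EV and 389.6, 406.0 and 381.9 CPM in gtr-1 RNAi, with overlap and a log2 fold change of 0.03 ± 0.04 (SE).

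Other BTB adaptors lay on both sides of EV. Of 11 listed, 9 were found in the table, edgeR called 0 and DESeq2 called 3 higher and 1 lower, where it called 6.66% of all genes higher and 7.58% lower. The adaptor gene mel-26, whose product brings the meiotic katanin subunit MEI-1 to degradation after meiosis, was at 263.1, 246.7 and 240.2 CPM in EV and 285.0, 292.9 and 280.8 CPM in gtr-1 RNAi, a log2 fold change of 0.20 ± 0.04 (SE) without overlap. The kelch-type genes kel-8 and ivns-1 were called higher by DESeq2 (edgeR log2 fold change 0.34 ± 0.09 and 0.24 ± 0.07, SE), and kel-1 was called lower (-0.78 ± 0.22, SE). The listed MEL-26 targets mei-1, mei-2 and ppfr-1 were not called, at 0.05 to 0.10.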

How the data were processed

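RNA came from pools of whole worms and was made into stranded mRNA libraries, per the labels' protocols. The submitters' processing notes name STAR, HTSeq and WBcel235. No version, annotation release or strand option is given in the sources used here, so reads of overlapping genes (16 members share exon bases with another gene) and of close paralogs are uncertain. The values tested are whole-number counts per gene in the authors' deposited table. Its 6 columns of normalized values were not used. Headers of the gtr-1 RNAi columns were matched to the titles by GT and the replicate number. Positions and exon lengths come from the Ensembl 115 annotation of WBcel235, and level per kb is CPM over the kb of merged exons. The sources used here gave no protein or promoter sequences.

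Genes with counts in the 6 libraries were filtered with filterByExpr, scaled with TMM and fitted with the edgeR 4.0.16 quasi-likelihood test (robust, R 4.3.3), gtr-1 RNAi against EV with no covariate, Benjamini-Hochberg adjusted over all genes with a threshold of 0.05. The alternatives were DESeq2 1.42.0, 2 other scalings, 2 other filters, each library left out and the replicate number as a block. Each SE of a fold change is its absolute log2 value divided by the square root of its edgeR F statistic. Genes without a DESeq2 adjusted p count as not called. The fits were tested on simulated counts. Separate cultures are not stated for the replicates, and p-values then cover only the spread among these libraries, part or all of which may be technical. Totals of 33254426 to 41902475 counts per library limit precision mainly for members with few counts; the limit for 0 counts covers counting error only.

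The members, gene lists and naming rule were chosen with earlier results of these data known. Named in each family were the 6 highest levels, the 5 highest and 5 lowest fold changes, every called member, the members nearest to the filter and math-33; other members are named as neighbours or examples chosen after their values were seen. The list of genes that act with MATH-33 is not reported here.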

Additional observations from a re-analysis of the deposited data

How the results depend on the processing

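No gene was called by edgeR in the 6 libraries. DESeq2 called 1824 of 12802 genes, among them 4 of 31 bath genes and 2 of 16 math genes. Leaving out 1 library at a time gave from 0 to 3544 edgeR calls over all genes. The range was 0 to 8 for bath genes and 0 to 6 for math genes. The highest counts came without gtr-1 RNAi replicate 3, among 14920 genes tested, of which 34 were bath and 21 math genes. The cause was not tested. Deviations from the group means correlated at 0.297, -0.107 and 0.306 between libraries of the same replicate number. Between libraries of different numbers the correlations ran from -0.459 to 0.363. With 3 libraries a group, these values cannot decide whether the replicate numbers pair the libraries. With the replicate number as a block, edgeR called 959 of 14683 genes, 1 of 34 bath genes and 0 of 21 math genes. The median log2 fold change of the bath genes went from 0.0927 to 0.0349 with library size alone, where the median of all genes also moved by -0.06. The medians of both families stayed above 0 in all 12 alternatives. Of the 32 named members that passed the filter, 27 kept their sign in all 12 alternatives, and bath-5, bath-33, bath-37, bath-44 and math-38 did not. Low counts limit the math family most, with 16 of 37 genes under the filter.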
